A study of Mus musculus with 4 samples.

Results

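Small nucleolar RNAs (snoRNAs) were read from the gene counts of sorted mouse alveolar type II (AT2) cells. The members were the rows typed snoRNA by the submitters whose raw counts summed to 20 or more over the 4 libraries. This rule kept 87 of 1230 snoRNA rows, in a table of 40092 rows. In all, 246 snoRNA rows had any count. The members were thus chosen by their summed count, so their abundance is given as a description. The genotype labels were not used in the choice, but a member could reach 20 counts through 1 library alone.

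AT2 cells make surfactant and serve as stem cells of the lung alveolus. The control libraries (Ctrl 1 and Ctrl 2) came from mice of genotype Alkbh5flox/+; Sftpc-CreERT2; Rosa26-mTmG, and the knockout libraries (A5-CKO 1 and A5-CKO 2) from Alkbh5flox/flox; Sftpc-CreERT2; Rosa26-mTmG. All mice received tamoxifen and bleomycin, a drug that injures the lung, and GFP+ cells were sorted on day 14. Cre is driven by the surfactant gene Sftpc, so deletion and label follow that promoter, and the controls carry a floxed Alkbh5 allele too, so that heterozygous cells were compared with homozygous ones. Alkbh5 removes the m6A mark from RNA, and the comparison asked which transcripts differ when it is lost. Where 4 values are listed for a gene or a list, they stand for Ctrl 1, then Ctrl 2, then A5-CKO 1, then A5-CKO 2. No label says how many mice gave each library, so p-values measure the spread between these libraries.

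A snoRNA is a short nuclear RNA that guides an enzyme to a chosen base of another RNA, mostly ribosomal RNA. Box C/D snoRNAs carry a C box near the 5′ end and a D box near the 3′ end, and guide 2′-O-methylation by fibrillarin. Box H/ACA snoRNAs end shortly after the letters ACA and guide pseudouridine formation by dyskerin. A few snoRNAs instead serve the cutting of the ribosomal RNA precursor. In mammals most of them lie in introns of host genes, often genes of ribosomal proteins or long noncoding RNAs of the Snhg family, and are trimmed out of the spliced intron. Some have promoters of their own. Mature snoRNAs have no poly(A) tail, and the libraries were made with a SMARTER mRNA-Seq kit. In these counts, a read of the mature snoRNA and a read of unspliced host RNA across the same bases cannot be told apart.

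By symbol, 41 members were C/D (Snord) and 25 were H/ACA (Snora), and 21 had no class in the symbol. The sequences shown here are those of the members whose values carry the comparison or that are known for a role in ribosomal RNA processing. They were taken from GENCODE M21 on GRCm38, 5′ to 3′ on the strand of the gene. For some of them the ends differ by a few to about 20 bases from the NCBI models over which the reads were counted. Snord14 (U14) is a C/D RNA needed for maturation of the small ribosomal subunit, and 4 of its copies were members. Snord14c (chr9:40803583-40803668), Snord14d (chr9:40803995-40804080) and Snord14e (chr9:40804748-40804837) lie on the plus strand in Hspa8, the gene of a constitutive heat shock chaperone. Snord14a (chr7:116333171-116333257) lies on the minus strand in the ribosomal protein gene Rps13. The capitals mark the C box with its preceding base and the D box.
Snord14c: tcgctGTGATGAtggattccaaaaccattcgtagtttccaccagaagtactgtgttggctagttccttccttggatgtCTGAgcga
Snord14d: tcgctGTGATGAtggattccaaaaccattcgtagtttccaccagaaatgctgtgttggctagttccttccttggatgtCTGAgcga
Snord14e: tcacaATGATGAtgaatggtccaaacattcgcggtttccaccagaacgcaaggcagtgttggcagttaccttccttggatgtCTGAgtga
Snord14a: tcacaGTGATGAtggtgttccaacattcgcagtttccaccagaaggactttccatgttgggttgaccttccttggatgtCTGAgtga

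Snord14c and Snord14d were identical at 84 of 86 aligned bases (97.7%). The other pairs of U14 copies shared between 77.4% and 82.6% of aligned columns. Reads of Snord14c and Snord14d can therefore fit both genes, and the split between these copies is uncertain.

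The other sequences belong to members whose groups did not overlap. Snord32a (chr7:45127382-45127464, minus strand) is a C/D RNA of Rpl13a, whose intronic snoRNAs are known for a part in the response to lipid stress. Snord17 (chr2:144265979-144266216, minus strand) is a long C/D RNA of Snx5, a sorting nexin gene. Snora34 (chr15:98519716-98519853, minus strand) is an H/ACA RNA of Kansl2, a gene of a chromatin-acetylating complex. Snora73a (chr4:132352775-132352979, minus strand) is U17, an H/ACA RNA of Snhg3 known for ribosomal RNA processing. Capitals mark the C and D boxes in the C/D RNAs and the ACA box in the H/ACA RNAs.
Snord32a: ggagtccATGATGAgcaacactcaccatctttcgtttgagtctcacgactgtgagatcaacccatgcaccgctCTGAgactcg
Snord17: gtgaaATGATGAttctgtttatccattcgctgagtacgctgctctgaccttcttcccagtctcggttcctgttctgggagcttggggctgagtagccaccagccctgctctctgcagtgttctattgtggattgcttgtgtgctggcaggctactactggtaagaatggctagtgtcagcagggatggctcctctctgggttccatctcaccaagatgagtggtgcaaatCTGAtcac
Snora34: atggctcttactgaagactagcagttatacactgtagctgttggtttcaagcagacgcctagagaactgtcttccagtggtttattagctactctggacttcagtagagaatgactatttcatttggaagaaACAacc
Snora73a: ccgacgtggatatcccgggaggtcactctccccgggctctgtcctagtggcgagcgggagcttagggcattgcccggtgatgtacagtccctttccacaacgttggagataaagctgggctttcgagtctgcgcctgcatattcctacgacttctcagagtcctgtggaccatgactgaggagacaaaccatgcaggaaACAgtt

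A sequence was found for 83 of the 87 members. On the strand of the gene, CTGA stood in the last 15 bases of 38 of the 40 C/D members with a sequence. In GENCODE M21 it did so in 30.8% of the 1529 genes typed snoRNA or scaRNA (small Cajal body RNA). The letters NTGATGA stood in the first 25 bases of 28 of these 40 members, against 21.5% of the 1529 genes. ACA stood in the last 8 bases of 23 of the 25 H/ACA members, against 47.3%. The symbols of the members thus match the boxes in most sequences. Of the 18 sequences without a class in the symbol, 10 held CTGA and 7 held ACA in those windows.

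Depth and identity of the libraries were examined first. The libraries held from 18144865 to 20811757 counts. Normalized counts (CPM) are counts scaled by the TMM-adjusted library size. The limit of detection was set at 3 counts, which is 0.128 to 0.177 CPM per library. Alkbh5 had 81.7, 152, 19.3 and 36.6 CPM, so that the groups did not overlap. The gene count covers more than the deleted exon. All 8 AT2 markers were detected in every library, with Sftpc from 7856 to 16370.5 CPM.

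The 87 members took a small part of each library. Their counts summed to 1375, 806, 3762 and 1502. These are 0.00758% (95% exact Clopper-Pearson interval 0.00718 to 0.00799%), 0.00403% (0.00376 to 0.00432%), 0.0188% (0.0182 to 0.0194%) and 0.00722% (0.00686 to 0.00759%) of all counts, where the intervals and the floor cover counting error only. Single members had between 20 and 349 counts over all libraries, with a median of 63. Just inside the threshold were Snord53 with 0, 0, 17 and 5 counts, Snord69 with 2, 1, 5 and 13, and Gm26448 with 3, 2, 10 and 5. Just outside were Snord1a with 0, 6, 6 and 7 counts, Gm24339 with 2, 3, 12 and 2, and Snord35b with 1, 1, 10 and 7.

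The snoRNAs were high in a single knockout library. The summed level was 81.3 CPM in Ctrl 1 and 46.9 CPM in Ctrl 2, against 170.3 CPM in A5-CKO 1 and 64.2 CPM in A5-CKO 2. A5-CKO 1 stood above the other libraries, while A5-CKO 2 lay between the Ctrl libraries. The mean was 64.1 ± 24.3 CPM (SD, n = 2) in Ctrl and 117 ± 75.04 CPM (SD, n = 2) in A5-CKO, and the exact two-sided permutation test gave p = 0.667. With 2 libraries in each group this test cannot give a p under 0.333. A5-CKO 1 was 2.65 times A5-CKO 2, and Ctrl 1 was 1.73 times Ctrl 2. The ratio between the genotype means was 1.83, below the ratio within A5-CKO and close to that within Ctrl. Without A5-CKO 1, the level in A5-CKO 2 was 1.00 times the Ctrl mean.

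The same order held without the count threshold. All 1230 rows typed snoRNA summed to 89.0, 52.6, 189 and 74.8 CPM. Leaving out the 5 members of highest count gave 64.1, 35.4, 134 and 53.6 CPM. A5-CKO 1 was again the highest and Ctrl 2 the lowest.

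**Figure D1:**
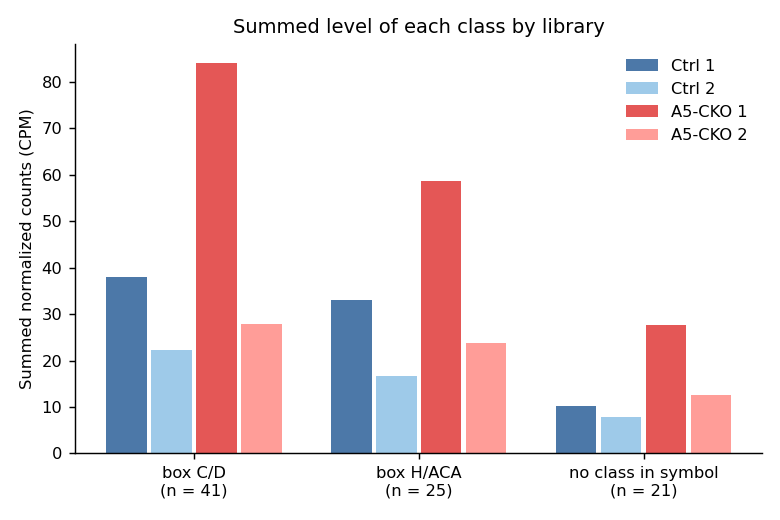
Summed normalized counts (CPM, linear axis from 0) of the C/D members, the H/ACA members and the members with no class in the symbol, with 1 bar for each library. A5-CKO 1 is the highest bar in each class, at 84.0, 58.6 and 27.7 CPM.

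Both classes showed this order. The 41 C/D members summed to 38.1, 22.3, 84.0 and 27.9 CPM. The 25 H/ACA members summed to 33.1, 16.6, 58.6 and 23.8 CPM. In both classes A5-CKO 2 lay between the Ctrl libraries. The 21 members without a class summed to 10.1, 7.91, 27.7 and 12.5 CPM, and here the groups did not overlap, with A5-CKO higher (exact two-sided permutation p = 0.333, the smallest this design allows).

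Member by member, 70 of 87 (80.5%) were highest in A5-CKO 1, against 27.8% of all 16661 genes tested and 32.6% of 27072 genes without a filter. They were 32 of the 41 C/D members, 20 of the 25 H/ACA members and 18 of the 21 others. The ratio of A5-CKO 1 to the mean of the other libraries had a median of 2.55 over the members, with quartiles of 1.72 and 3.50, and a median of 0.950 over all genes tested. Ctrl 1 was the highest library for 13 members, A5-CKO 2 for 3 and Ctrl 2 for 1. A difference was also seen between the controls, since 65 of 87 members were higher in Ctrl 1 than in Ctrl 2, against 50.5% of all genes tested.

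**Figure D2:**
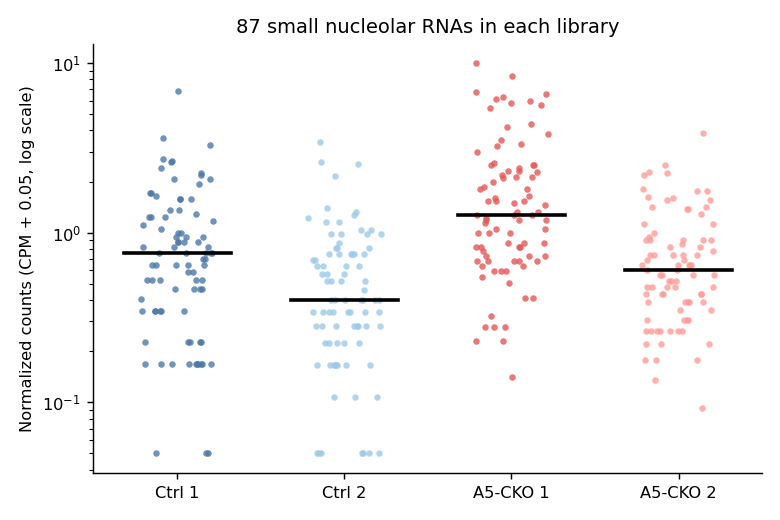
Normalized counts of the 87 members in each library (CPM + 0.05, log axis), 1 point for each member, with the median as a black line. The points of A5-CKO 1 sit highest, with a median of 1.22 CPM before the offset, against 0.710, 0.349 and 0.556 CPM in Ctrl 1, Ctrl 2 and A5-CKO 2.

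For the genotype comparison, both A5-CKO values exceeded both Ctrl values in 36 of 87 members (41.4%), against 20.3% of all genes tested. Over the tested members alone it was 22 of 60 (36.7%), and over 27072 genes without a filter it was 20.9%. Both were below in 2 members, Snord17 and Gm26493, against 23.5% of all genes. A5-CKO 2 on its own was above both Ctrl libraries in 38 members (43.7%), below both in 17 and between them in 32, where 33.3% of all genes tested had A5-CKO 2 above both. Leaving out Ctrl 1 raised the count of members above the remaining Ctrl library to 66, and leaving out A5-CKO 2 raised it to 71. Without A5-CKO 1 it was 38.

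No snoRNA passed the test across all genes. By the quasi-likelihood test of edgeR, 0 members had an adjusted p (Benjamini-Hochberg) under 0.05 (0% of 16661 genes tested), and the smallest adjusted p of a member was 0.528. DESeq2 called 0 members and 0.384% of all genes, but it gave an adjusted p to 23 of the 60 tested members and none to the other 37, Snord32a, Snora34 and Snord17 among them. At an unadjusted p under 0.05 in edgeR, 6 members were higher in A5-CKO, against 4.48% of all genes tested, and 1 was lower, against 4.71%. DESeq2 gave 6 higher, against 5.77% of all genes, and 1 lower, against 4.89%. The filter on low counts kept 60 members, 29 C/D, 22 H/ACA and 9 others. A member could pass this filter through the group where it was high. Of the members with an unadjusted p under 0.05 in edgeR, Snord32a, Snora34, Snord14c and LOC115489588 passed through A5-CKO alone, and Snord17 through Ctrl alone. Their p-values in the following paragraphs are therefore a description. Members above that p also passed through A5-CKO alone, Snord14a, Snora41, Gm23969, Gm26202, Snord21 and Gm26457 among them. Counts over the 60 tested members, and over their pairs with hosts, thus rest partly on members let in by the group where they were high.

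Fitted without a filter, all 87 members had a median log2 fold change of 0.94 (A5-CKO against Ctrl), and 75 were above 0, where 58.1% of 27072 genes were above 0 and their median was 0.21. LOC115488700 and Snord53, the 2 members with no count in either Ctrl library, reached the count threshold through A5-CKO alone. Against a floor of 3 counts per Ctrl library, their A5-CKO means were at least 3.32-fold and at least 2.79-fold higher. For LOC115488700 this rests on A5-CKO 1, since A5-CKO 2 was at 0.171 CPM, under the Ctrl floors of 0.177 and 0.175 CPM. Setting both to these bounds left the median at 0.94, which could not move because the bounds lie above it. Of the 60 members that passed the filter, 54 had a log2 fold change above 0, against 49.1% of all genes, with a median of 0.87 against -0.02. Without A5-CKO 1 the median over the 66 members tested fell to 0.01, with 33 above 0 and 33 at or below it, against 45.7% of all genes above 0. The lone A5-CKO library is there assumed to vary like the Ctrl libraries. Without Ctrl 1 the median was 1.45 over 83 members, without Ctrl 2 it was 0.56 over 86, and without A5-CKO 2 it was 1.33 over 83. All genes tested had medians of 0.11, 0.06 and -0.07 in these fits. The filter kept more members there, so the shifts mix a change of members with the removal of a library.

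**Figure D3:**
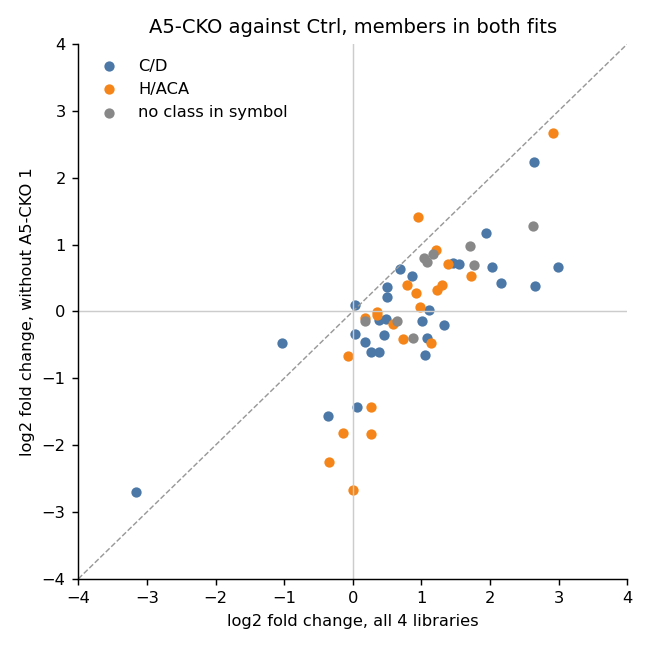
Log2 fold change (A5-CKO against Ctrl) of the 60 members tested in both fits, with all 4 libraries on the horizontal axis and without A5-CKO 1 on the vertical axis, coloured by class, with a dashed line of equal values. Most points lie below the line. Snora34 and Snord32a stay at 2.66 and 2.23 without A5-CKO 1, and Snord17 stays at -2.70.

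The U14 copies of Hspa8 were far higher in A5-CKO 1 than in A5-CKO 2. Snord14e had 1.66 and 0.929 CPM in Ctrl 1 and Ctrl 2, and 9.87 and 1.75 CPM in A5-CKO 1 and A5-CKO 2 (log2 fold change 2.16, standard error 0.91, unadjusted p = 0.0494 and adjusted p = 0.528 in edgeR). Snord14d had 0.473, 0.698, 6.66 and 0.769 CPM (log2 fold change 2.65, standard error 1.07). Snord14c had 0.296, 0.291, 4.30 and 0.470 CPM (log2 fold change 2.995, standard error 1.14). In each of the 3 copies A5-CKO 1 stood far above the rest, and A5-CKO 2 was just above the higher Ctrl library. Without A5-CKO 1 the log2 fold changes fell to 0.43, 0.38 and 0.66. The counts of the 3 copies together were 41, 33, 460 and 70. Snord14a, the copy in Rps13, had 0.473, 0.291, 1.49 and 0.641 CPM (log2 fold change 1.47, standard error 0.84), the same order at a smaller span.

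In Snord32a and Snora34, both knockout libraries stood well above both controls. Both members passed the filter and were picked for naming through these same high values, so what follows describes them and is no separate support. Snord32a had 0.118, 0.233, 1.40 and 0.855 CPM (log2 fold change 2.64, standard error 0.88, unadjusted p = 0.0203 and adjusted p = 0.528 in edgeR). The groups did not overlap, on counts of 2, 4, 31 and 20. Snora34 had 3, 0, 18 and 14 counts, a ratio of 7.99 for the summed counts after scaling, with a counting interval of 2.50 to 40.8. Its unadjusted p was 0.0499 and its adjusted p 0.528 in edgeR. Without A5-CKO 1, the log2 fold changes were 2.23 for Snord32a and 2.66 for Snora34, with unadjusted p of 0.111 and 0.150 in edgeR. The value of Snora34 rests on 3 control counts in Ctrl 1. It was 1.91 without Ctrl 2, and without Ctrl 1 no control count is left and no fold is given. The other snoRNAs of Rpl13a had smaller values, and their difference from Snord32a was not tested. Snord33, Snord34 and Snord35a, guides of ribosomal RNA methylation from the same host, had log2 fold changes of 0.45, 0.38 and 0.86, none with an unadjusted p under 0.05 in edgeR. LOC115489588, a member in Rpl7a, had 0.177, 0.233, 2.08 and 0.513 CPM (log2 fold change 2.62, standard error 1.00) and fell to 1.28 without A5-CKO 1.

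Snord17 went the other way. Its counts were 36, 12, 2 and 5, which are 2.13, 0.698, 0.0905 and 0.214 CPM. Both A5-CKO libraries were below both Ctrl libraries, and the log2 fold change was -3.16 (standard error 0.98, unadjusted p = 0.0150 and adjusted p = 0.528 in edgeR). The level in A5-CKO 1 was under the limit of detection. Without Ctrl 1 the log2 fold change was -2.08 (unadjusted p = 0.206 in edgeR), and without A5-CKO 1 it was -2.70 (unadjusted p = 0.0716 in edgeR). Its host Snx5 had 157, 101, 110 and 120 CPM, and the A5-CKO values of the host lay between those of the Ctrl libraries (log2 fold change -0.17).

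**Figure D4:**
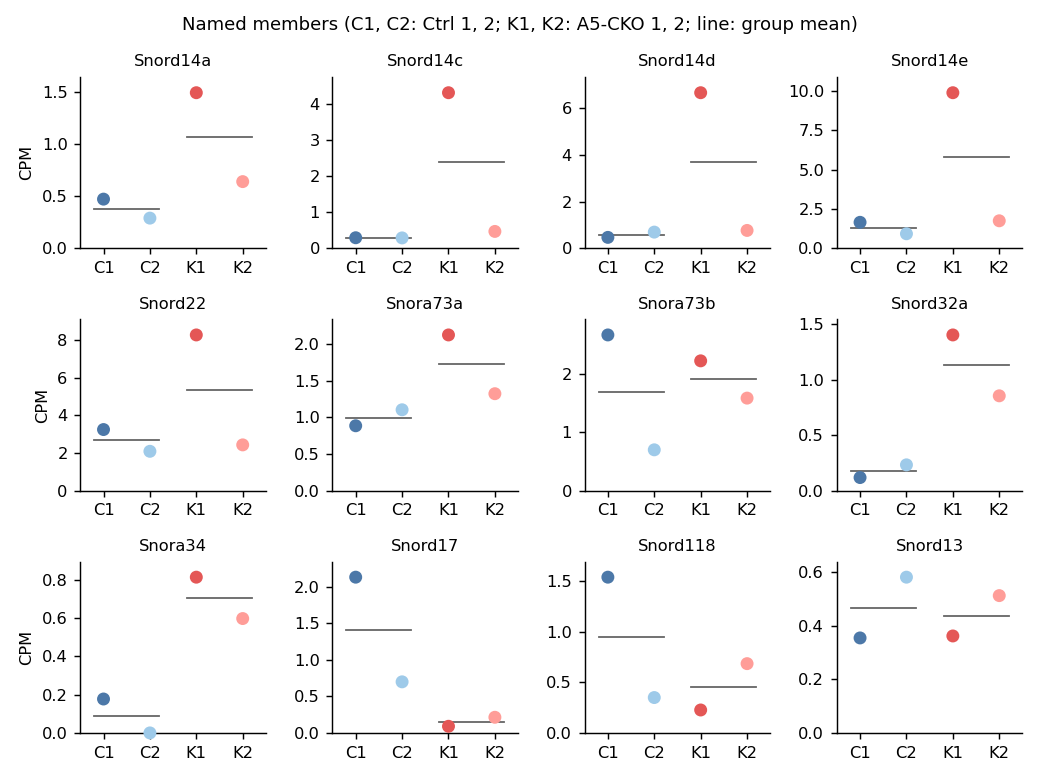
Normalized counts (CPM, linear axes from 0 with a scale of their own) of 12 members, with the group mean as a line. A5-CKO 1 is the highest point for the U14 copies, Snord22, Snora73a, Snord32a and Snora34, and the lowest for Snord17 and Snord118.

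Other snoRNAs of ribosomal RNA processing had smaller differences. Snord22 (U22), a C/D RNA of Snhg1, had 3.25, 2.09, 8.28 and 2.44 CPM, and its groups overlapped. Snora73a had 0.887, 1.11, 2.13 and 1.33 CPM (log2 fold change 0.79, standard error 0.68). Its copy Snora73b had 2.66, 0.698, 2.22 and 1.58 CPM (log2 fold change 0.18, standard error 0.80). These U17 copies were identical at 96.6% of aligned bases, so the split of reads between them is uncertain too. U3 was not among the members, because its rows carry no type in the table. Rows of the Snord116 cluster, which is expressed mainly in neurons, were at 0 counts in all 17 cases.

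The most abundant members per length did not share a single direction. The 10 with the highest mean CPM per kilobase ran from LOC115488570 in Rpl3 (63.9) and Snord104 (61.7) down to Snord12 in Zfas1 (21.2). This mean is over all 4 libraries and is raised by A5-CKO 1. Over the Ctrl libraries alone Snord104 came first (69.3) and LOC115488570 next (41.0), and Snord14d, which is among the 10, ranked 38 of 87. LOC115488570 had 2.01, 2.50, 5.75 and 3.80 CPM, with both A5-CKO libraries above both controls (log2 fold change 1.08, standard error 0.58). Snord104 had 6.74, 3.37, 6.20 and 1.71 CPM, with Ctrl 1 highest and A5-CKO 2 lowest (log2 fold change -0.35, standard error 0.75). Snord47, a C/D RNA of Gas5, had 1.06, 0.640, 5.61 and 1.37 CPM (log2 fold change 2.03, standard error 0.86, unadjusted p = 0.0517 in edgeR), and without A5-CKO 1 its log2 fold change fell to 0.67. Snora24, an H/ACA RNA of Snhg8, had 3.55, 2.56, 6.52 and 0.855 CPM, so that the knockout libraries held both its highest and its lowest value. Snord100, which lies in Rps12, had 2.19, 1.16, 5.89 and 1.07 CPM, and its A5-CKO 2 value was below both controls. Snord4a, a member in Rpl23a, was flatter, with 1.66, 1.22, 2.44 and 1.33 CPM.

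Members inside and outside host genes were then set side by side. By GENCODE M21, 81 members lay within the span of a gene and 6 did not. The host is on the same strand for all but LOC115488570, LOC115488700 and LOC115489588, whose own strand is not given in the tables used here. Of the hosted members 69 were highest in A5-CKO 1, and of the 6 without a host 1 was (Snora43). The hosted members summed to 70.1, 41.2, 161 and 60.1 CPM, and the 6 others to 11.2, 5.70, 9.73 and 4.15 CPM. Among these is Snord118 (U8), which is transcribed from its own promoter and is needed for the large ribosomal subunit. It had 1.54, 0.349, 0.226 and 0.684 CPM. Snord13, which helps to guide acetylation of ribosomal RNA and also has its own promoter, had 0.355, 0.582, 0.362 and 0.513 CPM. Neither was raised in A5-CKO 1. The remaining 3 were Snord104, Snora57 (2.37, 0.931, 2.26 and 0.342 CPM) and Gm24175, which is typed snoRNA in the table and long noncoding RNA in RefSeq. With 6 members this is a description, and no test was made of the difference.

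Most host genes had a lower level in A5-CKO, though none passed the threshold. A row in the table was found for 54 host genes, which hold 80 members, and 17 of them hold 2 members or more. The median log2 fold change of the hosts was -0.67, with 41 of 54 below 0, where 49.1% of all genes tested were above 0. At an unadjusted p under 0.05 in edgeR, 12 of 54 were lower and 0 were higher, against 4.71% and 4.48% of all genes tested, and the adjusted p of every host was above 0.05. The 24 ribosomal protein hosts were all below 0, with a median of -0.85. The 10 long noncoding hosts picked by symbol (Snhg genes, Gas5, Zfas1 and Dancr) had a median of -0.21, with 6 below 0, and the 20 other hosts one of -0.02. These others include 2410006H16Rik and Epb41l4aos, which are also long noncoding by their GENCODE M21 types, with log2 fold changes of -0.91 and -0.57. Scaling by total counts alone moved the median of all genes tested from -0.02 to 0.30. On that scale the ribosomal protein hosts were still all below 0, with a median of -0.55, while the long noncoding hosts had a median of 0.09 with 4 below 0, which is lower than that of all genes.

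Set against host reads of the same library, which removes the scaling between libraries, both knockout libraries were above both controls. There were 2.12, 1.60, 9.65 and 3.31 member counts per 1000 host counts. The groups did not overlap, and the exact two-sided permutation p was 0.333, the smallest possible. On the log2 scale the ratio of the group means was 1.80, and it was 0.83 without A5-CKO 1. In ribosomal protein hosts the values were 1.52, 1.36, 6.38 and 2.97, and in the 20 other hosts 1.65, 0.936, 8.79 and 2.27. In the long noncoding hosts they were 52.4, 56.3, 127 and 63.2, a narrower span. Hspa8 with its U14 copies had 1.21, 1.47, 25.6 and 2.76, and Rpl13a with its 4 members had 1.53, 1.87, 8.26 and 3.41.

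**Figure D5:**
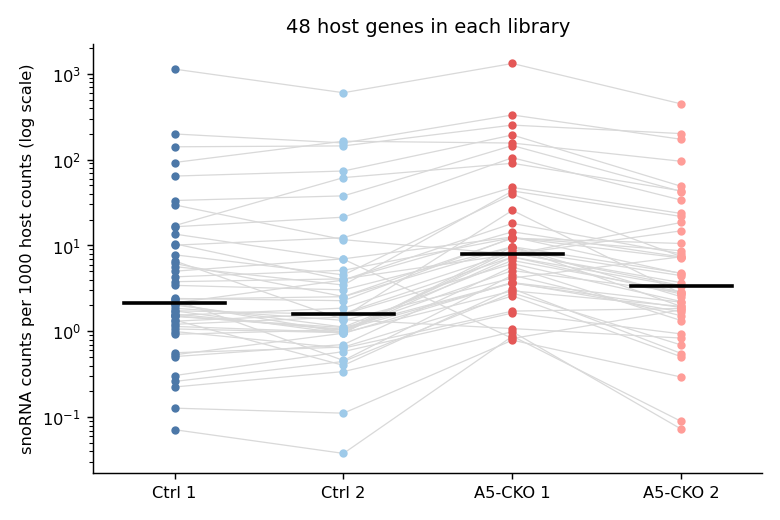
Member counts per 1000 counts of the host gene (log axis) in each library, for the 48 host genes with a value above 0 in every library, with 1 grey line for each host and the median as a black bar. The medians of these hosts are 2.12, 1.60, 8.01 and 3.37.

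The ratio was highest in A5-CKO 1 for 46 of the 54 hosts. The exceptions were Cnot1, Dancr, Ptcd3 and Snx5, which were highest in Ctrl 1, Snhg1, highest in Ctrl 2, and Gnl3, Rpl32 and Rpl5, highest in A5-CKO 2. Of 57 member and host pairs tested, the log2 fold change of the member was above that of its host in 55, with a median difference of 1.30. Without A5-CKO 1 it was above in 47 of 61 pairs, with a median difference of 0.75. Part of this gap is the lower host level in A5-CKO. In A5-CKO 2 the hosts summed to 0.614 of the Ctrl mean, while the hosted members, at 60.1 CPM, lay between Ctrl 1 (70.1 CPM) and Ctrl 2 (41.2 CPM). The higher ratio in A5-CKO 2 thus does not show a higher snoRNA level. Counts of a host also come from many more bases than those of its snoRNA. Where a member overlaps an annotated exon of its host, as 38 did, a read can fit both features and the way such reads were assigned is not given in the sources used here. The 46 members that overlap no exon summed to 32.9, 17.3, 55.5 and 21.4 CPM, and the 38 that overlap an exon of the host to 43.2, 26.7, 109 and 39.2 CPM. A5-CKO 1 was highest in both sets.

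Some long RNAs of the nucleus were highest in A5-CKO 1 too, and their part in the snoRNA result was not tested. Malat1, a nuclear-retained long RNA, had 722, 621, 3607 and 1304 CPM. Neat1, the scaffold of paraspeckles, had 459, 491, 2413 and 750 CPM, and Xist, the RNA of the inactive X chromosome, had 149, 123, 805 and 390 CPM. Snhg11, of the Snhg family, had 21.1, 45.6, 264 and 29.2 CPM. In all 4 genes A5-CKO 1 was the highest library. For Malat1, Neat1 and Xist, A5-CKO 2 was also above both Ctrl libraries. Their unadjusted p was 0.0112, 0.0197 and 0.00194 in edgeR, each with an adjusted p of 0.528. In DESeq2 their adjusted p was 0.0485, 0.121 and 0.00150. Snhg11 in A5-CKO 2 lay between the Ctrl libraries. Other Snhg genes, such as Snhg3, Snhg6, Snhg8 and Snhg18, were highest in Ctrl 1.

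Short noncoding RNAs outside the member rule did not share a single order. Rmrp, the RNA of the RNase MRP enzyme that cuts ribosomal RNA, had 11.1, 5.29, 2.26 and 3.68 CPM, and Rn7sk, a regulator of transcription elongation, had 40.9, 20.5, 13.4 and 15.3 CPM. Rpph1, the RNA of RNase P, had 12.4, 5.64, 2.26 and 4.79 CPM. In each of these 3 genes A5-CKO 1 was lowest and both A5-CKO libraries were below both Ctrl libraries, except that with total counts alone Rpph1 in A5-CKO 2 was between the Ctrl libraries. Rmrp and Rn7sk had an unadjusted p of 0.0479 and 0.0405 in edgeR, with an adjusted p of 0.528. Rows typed snRNA, the RNAs of the spliceosome, summed to 90.5, 42.4, 39.7 and 34.7 CPM. Ctrl 1 was highest there, and A5-CKO 2 was lowest. Rows typed tRNA summed to 620, 665, 1075 and 338 CPM, highest in A5-CKO 1 and lowest in A5-CKO 2.

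The genes of the proteins that form the snoRNA particles were read next. All 21 genes of the list were tested, their median log2 fold change was -0.24, and 9 were above and 12 below 0, where 49.1% of all genes were above 0. With total counts alone 13 were above 0 and the median was 0.08, against 0.30 for all genes. By edgeR, 0 of them passed at an adjusted p under 0.05, and at an unadjusted p under 0.05 there were 0 higher and 3 of 21 lower, against 4.48% and 4.71% of all genes. Of the C/D core, Fbl, the methyltransferase, had 52.7, 48.1, 33.3 and 40.3 CPM (log2 fold change -0.45), and Nop56 and Nop58, its scaffold, had 0.31 and 0.78. Snu13, which binds the box C/D turn, had 36.0, 32.8, 17.1 and 20.2 CPM (log2 fold change -0.88, standard error 0.33, unadjusted p = 0.0327 and adjusted p = 0.528 in edgeR).

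Of the H/ACA core, Dkc1, the pseudouridine synthase, had a log2 fold change of 0.19, Gar1 of 0.14 and Nhp2 of -0.50. Nop10, the smallest core protein, had 103, 56.4, 40.1 and 37.9 CPM, with both A5-CKO libraries below both controls (log2 fold change -1.03, standard error 0.36, unadjusted p = 0.0258 and adjusted p = 0.528 in edgeR). Among assembly factors, Pih1d1 of the R2TP complex was the third with an unadjusted p under 0.05 (log2 fold change -0.77, standard error 0.31). Its partners Ruvbl1, Ruvbl2 and Rpap3 had -0.29, -0.61 and 0.27. Naf1 and Shq1, which load the H/ACA proteins, had -0.01 and -0.46, and Tgs1, which modifies the cap of independently transcribed snoRNAs, had 0.47.

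Host genes of the Snhg family with Gas5 were counted as a list too. Of 19 rows 18 were tested, 8 were above and 10 below 0, with a median of -0.10, and 0 had an unadjusted p under 0.05 in edgeR. With total counts alone 14 were above 0, with a median of 0.20. Gas5 had 106, 52.0, 119 and 58.0 CPM and Snhg1 had 35.2, 12.8, 53.2 and 25.5 CPM. For both genes the highest library was A5-CKO 1 and the next Ctrl 1.

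The motif GGAC, a common context of the m6A mark, was looked for because Alkbh5 removes that mark. It stood on the gene's strand in 22 of the 83 members with a sequence (26.5%), against 20.3% of the 1529 snoRNA and scaRNA genes of GENCODE M21. GGAC stood in 40% of the H/ACA and 15% of the C/D members with a sequence, so this split also sorts the members by class. In the fit without a filter the median log2 fold change was 0.84 for the members with GGAC and 0.93 for the 61 without. Over the members that passed the filter it was 0.79 for 17 with GGAC and 0.86 for 41 without. Without A5-CKO 1 the order turned, with 0.39 for the 19 tested members with GGAC and -0.03 for the 44 without. A5-CKO 1 was the highest library for 16 of the 22 and for 51 of the 61. A match shows the letters alone, and no m6A data were analysed here.

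Markers of other cell types were listed beside the snoRNAs. The 5 fibroblast markers summed to 392, 145, 93.1 and 1011 CPM, and the 6 macrophage and leukocyte markers to 431, 141, 189 and 589 CPM. The 3 plasma cell markers summed to 677, 86.0, 146 and 660 CPM. No marker of these lists was at 0 in all libraries. All 3 sums were higher in Ctrl 1 than in Ctrl 2, as were the snoRNAs, while A5-CKO 1, the library with the most snoRNA reads, was below A5-CKO 2 in each. Ptprc, a leukocyte marker, went against its sum with 50.9, 22.5, 84.3 and 82.8 CPM. Pdgfra, a fibroblast marker, was lower in Ctrl 1 (9.17 CPM) than in Ctrl 2 (11.3 CPM). Jchain made up most of the plasma cell sum, with 622, 69.6, 136 and 634 CPM. Ighm, of the same list, had 31.4, 12.3, 4.71 and 7.95 CPM, so that both A5-CKO libraries were below both Ctrl libraries. Endothelial markers summed to 73.9, 140, 83.7 and 130 CPM, and club cell markers to 2753, 2672, 1887 and 1232 CPM. Ciliated cell markers summed to 136, 125, 148 and 52.6 CPM, and AT1 markers to 1106, 1015, 626 and 779 CPM. The endothelial, ciliated and AT1 lists were mixed, while all 3 club cell markers had a log2 fold change below 0. Aqp5 made up most of the AT1 sum, while Hopx had 124, 63.3, 146 and 143 CPM and Ager and Pdpn were near the limit of detection. Of the ciliated markers Foxj1 had a log2 fold change of -1.51 and Ccdc39 of 1.79. The 8 AT2 markers all had a log2 fold change below 0, with a median of -0.89, or 7 of 8 below 0 with total counts alone. Their part in the snoRNA result was not tested. In such bulk libraries, fewer cells of a type and less RNA per cell cannot be told apart.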

How the data were processed

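RNA-seq of sorted AT2 cells gave 4 libraries, 2 Ctrl and 2 A5-CKO, grouped by the genotype label. Per the labels and methods, the authors trimmed reads with Trim Galore 0.6.10, removed ribosomal RNA reads, aligned with HISAT2 2.2.1 to mm10, removed duplicates with sambamba and counted reads per gene with featureCounts 2.0.3 on an NCBI annotation. The deposited values are raw counts. The strand setting is not given in the sources used here, so a snoRNA and an overlapping gene on the other strand cannot be told apart, and removal of duplicates can lower the counts of short RNAs. The methods describe the removal of ribosomal RNA reads under RNA-seq, together with peak calling, and the counting under MeRIP-seq. Both steps were taken to be those of these libraries.

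Counts were fitted here with edgeR 4.0.16 in R 4.3.3 (TMM factors, filterByExpr with a minimum count of 10, glmQLFit and glmQLFTest), and p-values were adjusted by Benjamini-Hochberg over the 16661 genes kept, at a common dispersion of 0.173. The standard error of a log2 fold change was obtained from its F statistic. The fit was also run on simulated counts in which no single library deviated, so that run does not cover the pattern of A5-CKO 1. Alternatives were other scaling factors, DESeq2 1.42.0, limma voom (3.58.1), a robust fit, other filters, stricter member thresholds, a replicate block and each library left out.

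Hosts and sequences came from GENCODE M21. A host is a gene of the same strand whose span holds the member, or of either strand for 3 members of no stated strand. Members named were the 10 of highest mean CPM per kilobase, those with an unadjusted p under 0.05 and groups that do not overlap, and snoRNAs of known special role. Others were named after their values were seen. The members and lists were chosen with earlier results of these data known.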

Additional observations from a re-analysis of the deposited data

How the results depend on the processing

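In every alternative run, 0 members had an adjusted p under 0.05, but in DESeq2 37 of the 60 tested members had no adjusted p and could not be called. At an unadjusted p under 0.05, 746 of 16661 genes were higher in A5-CKO in edgeR and 1706 with total counts alone. It was 663 genes in limma voom, 396 with the replicate block, and 656 of 14543 with at least 10 counts in every library. The count of genes rose with total counts alone and fell with the replicate block, as did that of the members. Members higher in A5-CKO at this p numbered 6 of 60 in edgeR, 10 with total counts alone and 2 in limma voom. The members numbered 3 of 26 with at least 10 counts in every library and 0 with the replicate block. They ranged from 0 to 12 when each library was left out, with 0 without Ctrl 2 or A5-CKO 1. The 1 lower member was 0 with at least 10 counts in every library, and 0 to 1 with a library left out. Over the members, the median log2 fold change ranged from 0.0058 to 1.45 with a library left out, where the filter kept 66 to 86 members. It ranged from 0.65 to 1.18 in the other alternatives, at 0.77 with the replicate block. Over all genes tested, same-numbered libraries deviated in opposite directions (correlation -0.35), although Ctrl 1 and A5-CKO 1 were both the higher library of their group for most members. With 2 pairs, the numbers were not taken to pair the samples. The log2 ratio of summed CPM ranged from 0.0023 to 1.41 with a library left out. Log2 fold changes turned for Snora24 (-0.36 in limma voom, -0.31 with the replicate block, -1.84 to 1.06 with a library left out), Snora73b (-0.53 to 1.49), Snord100 (-0.66 to 1.78), Snord104 (-1.57 to 0.27), Snord118 (-2.06 to 0.45), Snord22 (-0.14 to 1.60) and Snord4a (-0.13 to 0.73). They also turned for Nhp2 (-1.02 to 0.29), Gar1 (-0.085 to 0.41), Nufip1 (-0.015 to 0.70) and Znhit6 (-0.22 to 0.51) with a library left out. With total counts alone Ruvbl1 was 0.027, Nolc1 0.079 and Coil 0.0053. Naf1 was 0.047 with RLE factors, 0.10 with upper-quartile factors, 0.33 with total counts alone, 0.047 in DESeq2, 0.025 in limma voom, 0.041 with at least 10 counts in every library, 0.025 with the replicate block and -0.24 to 0.34 with a library left out. The cause was not tested. Counting members with 1 A5-CKO library above both controls, and leaving out single libraries for the host ratio, were chosen after seeing the data. The members had a median of 63 counts over all libraries, which limits the precision of single members.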
